A study of Mus musculus with 18 samples.

Results

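The small MAF proteins MafK, MafG and MafF, their repressor partners BACH1 and BACH2 and their activator partner NRF2 were described in lymphomas with and without Prdm11. The members were the 6 genes Mafk, Mafg, Maff, Bach1, Bach2 and Nfe2l2 (which encodes NRF2), out of 19938 genes that had a probe set with a single gene symbol. Probe sets were chosen by their mean log2 level over all arrays, the highest being kept for each gene, but each member had only 1 such probe set. The genes themselves were picked with earlier results of these data known, among them the genotype difference of Mafk. That difference is therefore a description, and its p-value from the fit over all genes supports nothing further.

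The 18 tumours were taken at end stage from the spleens of as many mice, 9 of them Prdm11 KO and 9 Prdm11 WT. Both genotypes carried Eμ-Myc, a transgene that drives Myc in B lineage cells from the enhancer of the immunoglobulin heavy chain, and the labels give C57BL/6 as the background strain. The labels state neither sex nor age. The tumours were frozen and homogenised whole, so RNA of red cell precursors, macrophages and other spleen cells was measured together with that of the lymphoma, and fewer cells of a type cannot be told apart from less RNA per cell. Each tumour was hybridised to 1 Affymetrix array. Levels are log2 RMA intensities, which can be compared between tumours for a gene but not closely between genes. Where a gene is called dim below, its level was set against the array medians or the median gene, which is only a rough guide.

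Small MAF proteins are basic leucine zipper factors with no activation domain of their own. Paired with the NF-E2 subunit that Nfe2 encodes, or with NRF2, they activate genes. Among these are globin genes in red cell precursors and genes of detoxifying enzymes in many cells. Paired with BACH1 or BACH2 they repress. Haem releases BACH1 from DNA, which frees the haem oxygenase gene Hmox1 and other targets, and BACH2 in B cells represses Prdm1 and holds back plasma cell differentiation. NRF2 is kept low by KEAP1 until oxidative or electrophilic stress stops its degradation.

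The 250 bases before the start sites of Mafk, Mafg and Bach2 are shown because these members had the 3 largest correlations with a cell type list described below. Sequences are those of RefSeq on the GRCm38.p6 build, 5′ to 3′ on the strand of the gene, and all 6 members had at least 1 entry. Capitals mark the core of the antioxidant response element bound by NRF2 and small MAF pairs, searched as TGACNNNGC, and the core of the GATA factor motif, searched as GATAA, each on both strands. The Mafk window lies at chr5:139791286-139791535 (plus strand), the Mafg window at chr11:120633548-120633797 (minus strand) and the Bach2 window at chr4:32417185-32417434 (plus strand). The Mafg and Bach2 windows lie inside the annotated spans of their own genes, and the Mafk window lies just before its gene.
Mafk: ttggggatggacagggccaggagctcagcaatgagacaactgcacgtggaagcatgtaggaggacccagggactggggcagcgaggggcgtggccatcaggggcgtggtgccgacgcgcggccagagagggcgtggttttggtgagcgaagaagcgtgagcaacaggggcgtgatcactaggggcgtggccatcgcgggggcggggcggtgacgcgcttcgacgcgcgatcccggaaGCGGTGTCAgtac
Mafg: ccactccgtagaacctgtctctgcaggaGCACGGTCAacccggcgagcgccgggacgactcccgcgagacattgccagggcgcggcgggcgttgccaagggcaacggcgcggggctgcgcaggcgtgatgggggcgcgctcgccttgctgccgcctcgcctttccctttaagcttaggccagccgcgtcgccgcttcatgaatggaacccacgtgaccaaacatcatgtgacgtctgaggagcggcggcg
Bach2: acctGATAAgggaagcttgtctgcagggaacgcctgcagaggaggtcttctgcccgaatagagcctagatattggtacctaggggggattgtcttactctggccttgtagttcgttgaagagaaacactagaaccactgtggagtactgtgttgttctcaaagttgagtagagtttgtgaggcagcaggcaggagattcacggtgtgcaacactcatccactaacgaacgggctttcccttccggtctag
The antioxidant element core occurred once in the Mafk window and once in the Mafg window, in both on the reverse strand as printed. Over the members it was found in 4 of 8 windows (those of Mafk, Mafg and Nfe2l2 and 1 of the 3 of Maff), against 10.2% of 32851 windows of the same length. The GATA core was found in 2 of 8 windows, those of Bach2 and of 1 Maff start, against 22.6% of all windows. The core CACCC of the KLF factor motif was found in 2 of 8 windows, both of Maff, against 52.0% of all windows, and the EBF factor motif CCCNNGGG in 2 of 8, those of Bach1 and Nfe2l2, against 11.8%. The GC content of the member windows ran from 48.0% to 70.4%, and these shares are not adjusted for it.

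The arrays had medians of 5.14 to 5.38 on the log2 scale. Set against every other array, the array of KO tumour 4 correlated with a median of 0.957, that of WT tumour 3 with a median of 0.924, and the remaining 16 with medians of 0.959 to 0.975. The targeted gene Prdm11 averaged 5.21 ± 0.23 in KO and 5.33 ± 0.26 in WT tumours (SD, n = 9 each), and the ranges overlapped. The place of its probe set relative to the deletion is unknown here, so these levels check no label. Of the B cell receptor components, Cd79b lay at 8.59 to 10.24 in KO and 8.89 to 9.90 in WT tumours. Cd79a lay at 5.81 to 6.88 in KO and 3.69 to 6.70 in WT tumours, with its lowest level in WT tumour 8, where Bach2 was lowest too. The erythroid list averaged 6.65 ± 0.42 in KO and 7.18 ± 0.57 in WT tumours, and the pan-B list 7.20 ± 0.34 in KO and 6.87 ± 0.27 in WT tumours (SD, n = 9 each).

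None of the 6 members passed the adjusted threshold between genotypes, and Mafk and Bach2 had the largest differences. With an adjusted p below 0.05 in limma as the threshold, 0 of 6 members were called, against 1 of 19938 genes (0.00502%). At an unadjusted p below 0.05 in limma, 2 of 6 members were found, against 6.7% of all genes, and nothing is read from this count because the Mafk difference was known when the genes were picked. These were Mafk, lower in KO tumours (3.87% of genes were lower at this level), and Bach2, higher in KO tumours (2.83% were higher). The median difference over all genes was -0.03. Without KO tumour 4 and WT tumour 3, the arrays that stood apart, 1 of 6 members was left at this level (Mafk, -0.26, SE 0.09), while Bach2 had 0.30 (SE 0.18). Complete separation of the genotypes was seen for 0 of 6 members and 0.01% of all genes.

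Mafk, the small MAF first purified as a subunit of NF-E2, had the most uniform difference. Its level was 5.12 to 5.54 with a median of 5.38 in KO tumours, against 5.39 to 5.90 with a median of 5.60 in WT tumours. All 9 KO tumours lay below the WT median and 5 lay below every WT tumour, while 4 overlapped the lower WT tumours. The means were 5.37 ± 0.14 in KO and 5.64 ± 0.19 in WT tumours (SD, n = 9 each), a difference of -0.27 (SE 0.09, limma adjusted p = 0.67). These levels are near the array medians, so the signal was dim in both genotypes. With the erythroid list mean as a covariate the difference was -0.20 (SE 0.10, limma adjusted p = 0.411), and with the pan-B list mean it was -0.35 (SE 0.10, limma adjusted p = 0.603).

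Mafg, a small MAF gene needed for normal platelet formation in mice, had a KO range inside the WT range. It lay at 6.61 to 7.29 with a median of 6.70 in KO tumours and at 6.40 to 7.43 with a median of 6.85 in WT tumours. KO tumour 3 stood above the other KO tumours, which reached 6.89. The difference was -0.13 (SE 0.13, limma adjusted p = 0.869), and it turned to 0.06 (SE 0.12) with the erythroid covariate.

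Maff, the small MAF that is induced by inflammatory and stress signals, had nearly equal means. It lay at 5.27 to 5.92 with a median of 5.63 in KO tumours and at 5.04 to 5.99 with a median of 5.60 in WT tumours, lowest in WT tumour 3. The difference was 0.01 (SE 0.12, limma adjusted p = 0.994), which without WT tumour 3 was -0.06.

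**Figure D1:**
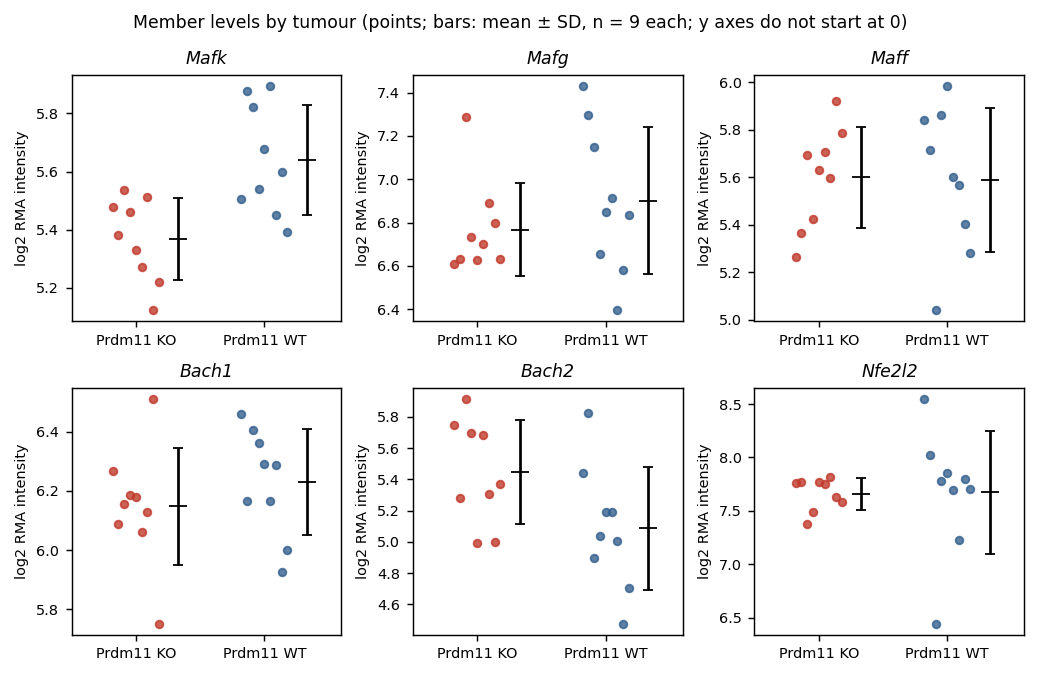
Each panel plots the log2 RMA intensity of 1 member, with a point per tumour for 9 Prdm11 KO tumours (left) and 9 Prdm11 WT tumours (right) and bars for the mean ± SD. Mafk lies at 5.12 to 5.54 in KO and 5.39 to 5.90 in WT tumours, Bach2 averages 5.44 in KO and 5.09 in WT tumours, and Nfe2l2 spreads from 6.44 to 8.55 in WT tumours.

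Bach1, the haem-sensitive repressor, lay at 5.75 to 6.51 with a median of 6.16 in KO tumours and at 5.93 to 6.46 with a median of 6.29 in WT tumours. The highest and the lowest of all 18 levels were both in KO tumours, 8 and 9. In 8 of 9 KO tumours Bach1 was below the WT median. The difference was -0.08 (SE 0.10, limma adjusted p = 0.889).

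Bach2, the B cell repressor, was the 1 member with a positive difference above its standard error. It lay at 5.0 to 5.91 with a median of 5.37 in KO tumours and at 4.48 to 5.82 with a median of 5.04 in WT tumours. In 7 of 9 KO tumours Bach2 was above the WT median, and the ranges overlapped. Bach1 and Nfe2l2, with differences of -0.08 and -0.01, each had 8 of 9 KO tumours below the WT median. Such a count therefore does not set Bach2 apart from them. The means of Bach2 were 5.44 ± 0.33 in KO and 5.09 ± 0.40 in WT tumours (SD, n = 9 each), a difference of 0.36 (SE 0.16, limma adjusted p = 0.721). These levels too were near the array medians. The unadjusted limma p was below 0.05 in 14 of 26 alternatives, and nothing is read from this count because the alternatives share the same tumours. With the pan-B list as a covariate, a setting added after the data were seen, the difference was 0.11 (SE 0.15), and with the erythroid list it was 0.54 (SE 0.17, limma adjusted p = 0.225).

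Nfe2l2, which encodes NRF2, had close means and unequal spread. It lay at 7.37 to 7.81 with a median of 7.75 in KO tumours and at 6.44 to 8.55 with a median of 7.78 in WT tumours, with the lowest level in WT tumour 3 and the highest in WT tumour 1. The SD was 0.15 in KO and 0.58 in WT tumours (n = 9 each), and whether the spreads differ was not tested. In 8 of 9 KO tumours Nfe2l2 was below the WT median. The difference was -0.01 (SE 0.18, limma adjusted p = 0.995). Leaving out WT tumour 3 gave -0.17 and leaving out WT tumour 1 gave 0.09, and with the erythroid covariate it was 0.22 (SE 0.19).

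**Figure D2:**
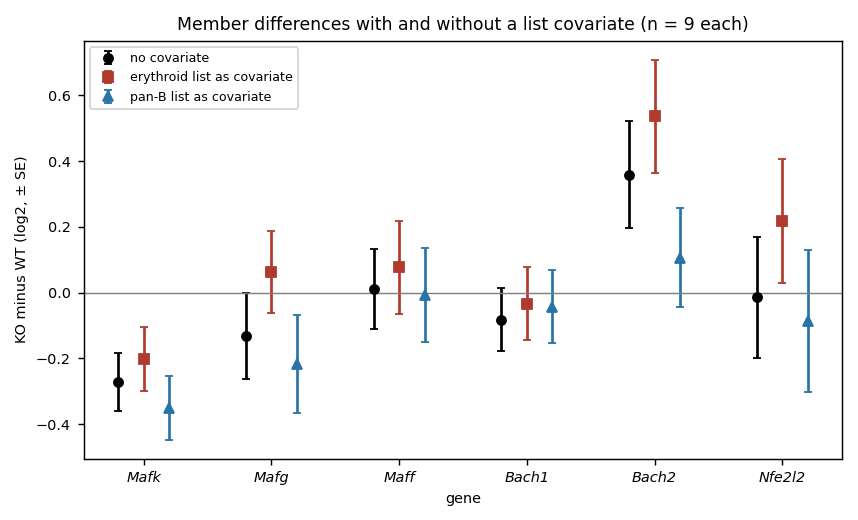
The plot gives the KO minus WT difference of each member on the log2 scale with its standard error (n = 9 each), without a covariate, with the erythroid list mean and with the pan-B list mean as a covariate. Mafk is below 0 in all 3 fits, at -0.27, -0.20 and -0.35, while Bach2 goes to 0.54 with the erythroid and to 0.11 with the pan-B covariate.

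The relation of the members to cell types was measured across the 18 tumours against 9 marker lists, each summarised as the mean log2 level of its measured genes. This gave 54 correlations, of which 5 had an unadjusted permutation p below 0.05 and 1 passed after adjustment over all 54. The 1 past the threshold joined Bach2 to the pan-B list. By Spearman's rho, 0 of 54 passed after adjustment.

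Bach2 was higher in tumours with more RNA of B lineage genes, a relation that passed the adjusted threshold by Pearson's r but not by rank or within genotypes. Its Pearson r with the pan-B list was 0.72 (permutation p = 0.00073, adjusted p = 0.0394) and its Spearman rho was 0.69 (permutation p = 0.00207, adjusted p = 0.0559). Without KO tumours 3 and 6, the 2 farthest from the list's median, r was 0.61. Within the genotypes r was 0.53 over 9 KO and 0.78 over 9 WT tumours, and after centring each genotype it was 0.64 with an adjusted permutation p of 0.112. Leaving out KO tumour 1, 3, 6, 7 or 9 or WT tumour 2, 5, 6, 7, 8 or 9 moved the adjusted permutation p to between 0.0502 and 0.106, with r of 0.66 to 0.73. Of 15 measured pan-B genes, 14 had a positive r with Bach2 and 7 had r above 0.5, against 7.72% of all genes. The closest were Ebf1 and Pax5, which encode factors that establish B cell identity, with r of 0.84 and 0.81, and the coactivator gene Pou2af1 with 0.75. Cd79b had r of 0.09 and Fcrla, a B cell Fc receptor-like gene, had -0.13.

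The lists of single B cell stages had smaller correlations with Bach2, and whether they differ from that of the pan-B list was not tested. The pro-B and pre-B list stood highest in KO tumours 1, 2 and 4 (7.63, 7.18 and 7.69) and WT tumour 1 (7.55), and at or below 6.85 in the other 14. For Bach2 r was 0.46 with the pro-B and pre-B list (permutation p = 0.0585, adjusted p = 0.458, rho = 0.40 with a permutation p of 0.102) and 0.05 with the mature B list (permutation p = 0.851, rho = -0.10 with a permutation p of 0.7). The r with the pro-B and pre-B list was 0.16 in KO and 0.56 in WT tumours, and without KO tumours 1 and 4, the 2 farthest from the list's median, it was 0.26. Every one of the 17 pro-B and pre-B genes correlated positively with Bach2, and 16 of 17 did so with Bach1. The median r over all genes was -0.02 with Bach2 and 0.10 with Bach1. The share of all genes with a positive r was not computed, so nothing is read from these sign counts. With Bach1, 1 of the 17 was above 0.5, against 9.41% of all genes. Above 0.5 with Bach2 were 3, against 7.72% of all genes: Akap12 at 0.76, Cd93 at 0.66 and Vpreb3 at 0.66. The surrogate light chain genes Igll1 and Vpreb1 had r of 0.11 and 0.20, so the list was uneven. With the germinal centre and plasma cell list Bach2 had r of -0.12. Prdm1, the plasma cell regulator that BACH2 represses, had r of 0.02 with Bach2 (permutation p = 0.927, rho = -0.05 with a permutation p of 0.849). Without KO tumour 6, where Prdm1 was highest at 5.05, r was -0.25, and without KO tumour 6 and WT tumour 5 it was -0.28. Prdm1 was dim, between 4.09 and 5.05 and so below the array medians.

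For the other 5 members r with the pan-B list ran from -0.27 (Bach1) to 0.13 (Nfe2l2). With the pro-B and pre-B list it ran from -0.31 (Mafk) to 0.33 (Bach1), and with the mature B list from -0.14 (Nfe2l2) to 0.22 (Maff). None of these had an unadjusted permutation p below 0.05.

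Over all 18 tumours Mafg and Mafk had the highest r with the erythroid list, and neither passed after adjustment. After centring each genotype Mafg was still highest, at 0.64 (adjusted permutation p = 0.112), and Mafk was below Nfe2l2 and Bach2. For Mafg, r was 0.66 (permutation p = 0.00249, adjusted p = 0.0672) and rho was 0.59 (permutation p = 0.0104, adjusted p = 0.113). Within the genotypes r of Mafg was 0.48 in KO and 0.72 in WT tumours. Leaving out KO tumour 6 and WT tumour 1, the 2 farthest from the list's median, gave 0.53, and leaving out WT tumour 1 alone gave 0.50 (adjusted permutation p = 0.481). Without KO tumour 8, WT tumour 3 or WT tumour 4 the adjusted permutation p of Mafg was 0.0412, 0.0473 and 0.0432. All 19 measured erythroid genes had a positive r with Mafg and 14 were above 0.5, against 5.67% of all genes. All 19 were positive for Mafk, Maff, Bach1 and Nfe2l2 too, so the sign count does not set Mafg or Mafk apart from these members. Above 0.5 were 0 for Maff, 2 for Bach1 and 3 for Nfe2l2, against 1.4%, 9.41% and 7.24% of all genes. The largest r with Mafg was 0.79, for Sptb, a spectrin of the red cell membrane. The erythroid transcription factor genes Gata1 and Klf1 followed at 0.78 and 0.765. These genes were named after their values were seen.

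For Mafk, r with the erythroid list was 0.58 (permutation p = 0.0114, adjusted p = 0.154) and rho was 0.72 (permutation p = 0.00104, adjusted p = 0.0559). WT tumour 1 had by far the highest erythroid mean, 8.36, but a Mafk level of 5.51, below the WT median. Without it r was 0.76 with an adjusted permutation p of 0.0124, and without it and KO tumour 6 r was also 0.76. Of the runs with 1 tumour left out, Mafk passed only in the run without WT tumour 1. The lowest r was 0.53, without WT tumour 6 (adjusted permutation p = 0.42). Within the genotypes r of Mafk was 0.71 in KO and 0.21 in WT tumours, and after centring each genotype it was 0.39. All 19 erythroid genes had a positive r with Mafk and 11 were above 0.5, against 4.44% of all genes, led by Klf1 at 0.725, the erythroid translocator gene Tspo2 at 0.68 and the blood group gene Rhd at 0.63, again named after their values were seen.

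The remaining members had smaller r with the erythroid list over all 18 tumours, but after centring each genotype Nfe2l2 and Bach2 were above Mafk. For Nfe2l2, r was 0.46 (permutation p = 0.0642, adjusted p = 0.458, rho = 0.50 with a permutation p of 0.0345). Leaving out KO tumour 6 and WT tumour 1 gave 0.27. Of the runs with 1 tumour left out, r was lowest without WT tumour 1, at 0.17, and highest without WT tumour 3, at 0.64. Leaving out KO tumour 6 alone gave 0.54. The size of this r therefore depended strongly on single WT tumours. After centring each genotype r of Nfe2l2 was 0.52 (permutation p = 0.032, adjusted p = 0.288). For Bach2 r was 0.12 over all tumours, 0.06 in KO and 0.70 in WT tumours, and 0.45 after centring each genotype (permutation p = 0.0593, adjusted p = 0.289). Bach2 was higher and the erythroid list lower on average in KO tumours, and whether its relation to the list differs between genotypes was not tested. For Bach1 r was 0.31, and 0.04 without KO tumour 6 and WT tumour 1. Maff had r of 0.19.

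**Figure D3:**
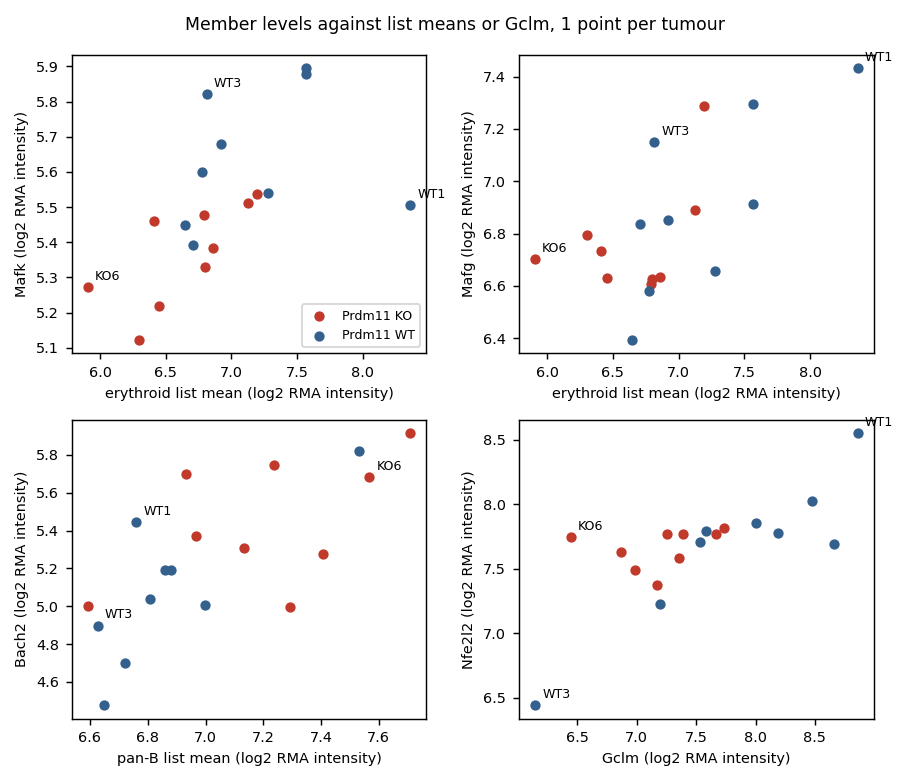
Each point is 1 tumour (red for Prdm11 KO, blue for Prdm11 WT), with the level of a member on the y axis and a list mean or the level of Gclm on the x axis, all in log2 RMA intensity, and WT tumours 1 and 3 and KO tumour 6 marked where they lie. Mafg and Mafk increase with the erythroid list (r of 0.66 and 0.58), Bach2 with the pan-B list (0.72) and Nfe2l2 with Gclm (0.74), and WT tumour 1 lies apart at an erythroid mean of 8.36.

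By Pearson's r over all 18 tumours, Maff and Nfe2l2 were highest with the macrophage list. By rho Maff was higher with the megakaryocyte list (0.46, permutation p = 0.0565) and Nfe2l2 with the germinal centre and plasma cell list, and without WT tumour 3 r of Nfe2l2 was 0.64 with the erythroid and 0.48 with the macrophage list. For Nfe2l2, r was 0.56 (permutation p = 0.0106, adjusted p = 0.154, rho = 0.60 with a permutation p of 0.00982), with 0.50 in KO and 0.66 in WT tumours. Without WT tumours 1 and 4, the farthest from the list's median, it was 0.42. For Maff, r was 0.50 (permutation p = 0.0363, adjusted p = 0.392, rho = 0.40 with a permutation p of 0.1), with 0.11 in KO and 0.76 in WT tumours. It was 0.69 without KO tumour 8 (adjusted permutation p = 0.0412), the only run with 1 tumour left out that passed. Without WT tumour 3, where Maff was lowest, it was 0.39 (adjusted permutation p = 0.717), and without WT tumours 1 and 4 it was 0.37. Whether the genotypes differ in this relation was not tested. With the germinal centre and plasma cell list Nfe2l2 had r of 0.38 (permutation p = 0.121) and rho of 0.61 (permutation p = 0.00926, adjusted p = 0.113). For the neutrophil, T cell and megakaryocyte lists, r over the 6 members lay between -0.37 and 0.44 and no unadjusted permutation p was below 0.05.

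**Figure D4:**
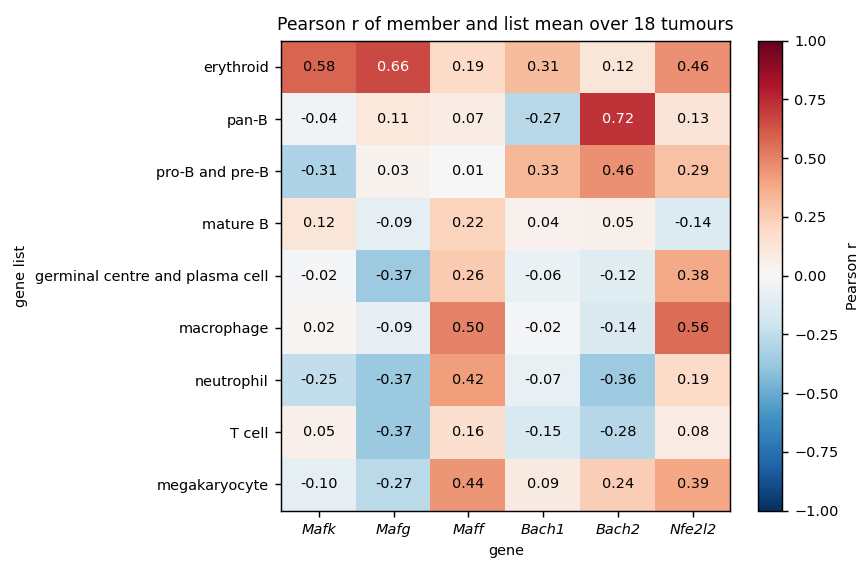
The grid gives Pearson r over 18 tumours for each member (columns) with the mean of each of 9 marker lists (rows), on a colour scale from -1 to 1. The largest values are 0.72 for Bach2 with the pan-B list and 0.66 and 0.58 for Mafg and Mafk with the erythroid list, and the mature B row lies between -0.14 and 0.22.

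Of the 15 pairs of members, 0 passed after adjustment of the permutation p over the 15, and 2 had an unadjusted p below 0.05. Mafk and Mafg had r of 0.47 (permutation p = 0.0464, adjusted p = 0.348, rho = 0.48 with a permutation p of 0.0459), with 0.44 in KO and 0.43 in WT tumours. Maff and Nfe2l2 had r of 0.53 (permutation p = 0.0206, adjusted p = 0.309, rho = 0.35 with a permutation p of 0.153), which was 0.23 without WT tumour 3, the tumour with the lowest level of both. Bach1 and Bach2 had r of 0.02.

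The genes most like each member over the 18 tumours were ranked by Pearson r, as a description. Genes dimmer on average than the median gene were left out, as were unannotated clones (such as symbols starting Gm or ending Rik). For Bach2 they were Cdk5rap2, which encodes a centrosomal protein, at 0.88, the chromatin remodelling gene Rsf1 at 0.87 and the RNA silencing gene Tnrc6c at 0.87. For Mafg they were Rabgef1, which encodes an exchange factor for Rab5, at 0.86, the aminopeptidase gene Xpnpep1 at 0.85 and Dmtn, which encodes the red cell membrane protein dematin, at 0.83. For Mafk they were Nacad at 0.82, the sialyltransferase gene St3gal2 at 0.81 and Cln8, an endoplasmic reticulum gene, at 0.80. For Maff they were Mlkl, the effector of necroptosis, at 0.75, the small GTPase gene Rap2b at 0.735 and the stress gene Ddit4 at 0.71, and without WT tumour 3 these were 0.62, 0.59 and 0.85. For Nfe2l2 they were the translation factor gene Eif5 at 0.91, the ribosomal protein gene Rpl21 at 0.90 and the small GTPase gene Rab8b at 0.89, which were 0.78, 0.76 and 0.74 without WT tumour 3. For Bach1 they were the connexin gene Gja3, the collagen gene Col4a2 and the transcription factor gene Dmrt3, at 0.82, 0.82 and 0.81. The level of Bach1 also had r of 0.57 with the median of its array, the highest of the 6 members. With the array median Mafk had r of 0.45, Mafg 0.415, Bach2 0.26, Maff -0.11 and Nfe2l2 -0.44. Without WT tumour 3 these were 0.31, 0.33, 0.50, 0.31 and -0.01. The level of Nfe2l2 had r of 0.67 with the array's median correlation to the others. The part of array quality in these relations was not tested.

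Partners and regulators of the members were followed through a list of 14 genes, of which 13 were measured. None passed the adjusted threshold of limma between genotypes, and the median difference was 0.01, against -0.03 over all genes. Of the 13, 1 was lower at an unadjusted limma p below 0.05, against 3.87% of all genes, and nothing is read from this count. Nfe2, the erythroid and megakaryocyte partner of the small MAF proteins, lay at 6.30 to 7.84 in KO and 7.01 to 9.50 in WT tumours, and all 9 KO tumours were below the WT median. Its difference was -0.65 (SE 0.29, limma adjusted p = 0.719). In the same tumours the median difference of the 19 measured erythroid genes was -0.68. All 19 were lower on average in KO tumours. Of these, 12 had an unadjusted limma p under 0.05, against 3.87% of all genes lower at this level. The part of erythroid cells in the Nfe2 difference was not tested. For Cul3, the ubiquitin ligase scaffold that acts with KEAP1, the difference was 0.25 (SE 0.16, limma adjusted p = 0.808), and Keap1 had 0.04 (SE 0.12).

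Targets of NRF2 and BACH1 in the antioxidant and haem responses had mostly negative differences, and none passed the adjusted threshold of limma. Of 20 measured, 15 were lower and 5 higher, and the median difference was -0.09, against -0.03 over all genes. After median centring 13 were lower and 7 higher, with a median of -0.055. Of the lower ones, 6 had an unadjusted limma p under 0.05, a level at which 3.87% of all genes were lower. For Taldo1, the transaldolase of the pentose phosphate pathway, the difference was -0.35 (SE 0.13, limma adjusted p = 0.699). Blvrb, the biliverdin reductase abundant in red cells, had -0.56 (SE 0.21, limma adjusted p = 0.699). The other 4, named after their values were seen, were the haem transporter gene Slc48a1 at -0.26, Hmox1 at -0.33, the quinone reductase gene Nqo1 at -0.30 and Gclm at -0.64. The level of Hmox1, the haem oxygenase gene, lay at 7.54 to 8.73 in KO and 8.15 to 8.89 in WT tumours, with 4 KO tumours below every WT tumour. The macrophage list averaged 6.59 ± 0.24 in KO and 6.79 ± 0.32 in WT tumours (SD, n = 9 each), with 13 of 15 genes lower on average in KO. The part of macrophages and erythroid cells in the target differences was not tested.

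**Figure D5:**
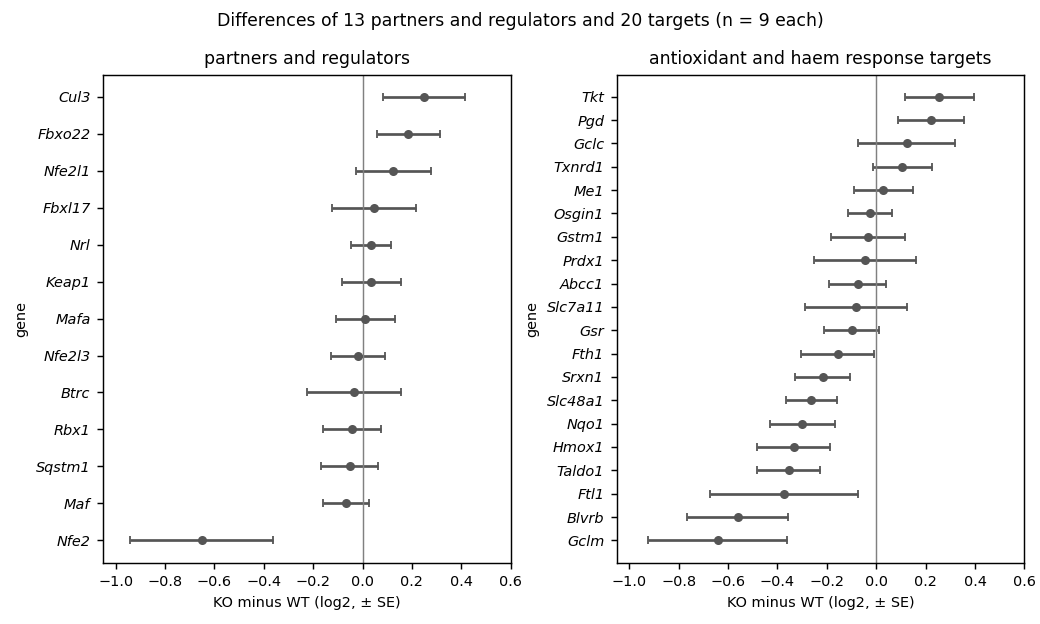
The points give the KO minus WT difference on the log2 scale with its standard error (n = 9 each) for 13 partners and regulators (left) and 20 antioxidant and haem response targets (right), ordered by size. Nfe2 at -0.65 stands apart from the other partners, and 15 of the 20 targets lie below 0.

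A family of 8 known pairs, chosen after levels had been seen, set members against a partner or target. Nfe2l2 and Gclm, which encodes the modifier subunit of glutamate cysteine ligase, had r of 0.74 (permutation p = 0.00035, adjusted p = 0.0028) and rho of 0.76 (permutation p = 0.00036, adjusted p = 0.00288). Within the genotypes this r was 0.27 in KO and 0.90 in WT tumours. Without WT tumours 1 and 3, which held the highest and the lowest levels of both genes, it was 0.49. Nfe2l2 and Nqo1 had r of 0.53 (permutation p = 0.0245, adjusted p = 0.0653) and rho of 0.67 (permutation p = 0.00292, adjusted p = 0.0117), with 0.51 in KO and 0.61 in WT tumours, and 0.68 without WT tumours 4 and 6. Nqo1 was dim, with means of 4.60 in KO and 4.90 in WT tumours, below the array medians of 5.14 to 5.38. Mafg and Nfe2 had r of 0.56 (permutation p = 0.0152, adjusted p = 0.0609, rho = 0.49 with a permutation p of 0.0388), which was 0.37 when KO tumour 6 and WT tumour 1 were left out. Mafk and Maff had r of 0.42 and 0.38 with Nfe2, with adjusted permutation p of 0.16 and 0.187. Bach1 and its target Hmox1 had r of 0.17 (permutation p = 0.495, rho = 0.11 with a permutation p of 0.661), and Nfe2l2 and Keap1 had r of 0.04.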

How the data were processed

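Gene expression was measured on Affymetrix arrays in 18 lymphomas, 1 array per tumour. The authors deposited probe set intensities, for which the submitters' processing notes name RMA, and these lay on a linear scale from 1.63 to 14996. The RMA version was not given in the sources used here. Here they were turned to log2 with no pseudocount and no filter. Of 35556 probe sets, 21789 had 1 gene symbol in the platform annotation, 1621 had several and 12146 had none.

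Genotypes were compared with limma 3.58.1 in R 4.3.3 (lmFit and eBayes, no covariate), with Benjamini-Hochberg adjustment over 19938 genes and a threshold of 0.05. Correlations used 100000 permutations, two-sided, in Python 3.11.15, adjusted within families of 54, 15 and 8. Both computations were tested on simulated data. The members, the 11 gene lists and the tests were chosen with earlier results of these data known. Beside the members, the genes named by rule were the 2 with the smallest p in each of the partner and target lists, the 3 most like each member, and up to 3 of a cell type list whose relation passed. The number of arrays limits the precision. Replicate numbers are shared between genotypes but did not pair the tumours.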

Additional observations from a re-analysis of the deposited data

Results flagged for a closer look

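Of 30 groups of 9 tumours (the 6 members and 9 cell type lists in each genotype), 5 held a tumour whose gap to its nearest neighbour, as a share of the group's range, was over Dixon's critical value. Chance flags about 1 in 20 groups. Mafg was 7.29 in KO tumour 3, above the other KO tumours. The pan-B list mean was 7.53 in WT tumour 2, the highest among WT tumours, and the pro-B and pre-B list mean was 7.55 in WT tumour 1. In KO tumour 6 the mature B list mean was 7.75 and the T cell list mean 7.17, both the highest of the KO tumours.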

How the results depend on the processing

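The members' differences kept their side of the threshold under every alternative run, with limma adjusted p of 0.225 to 1.0. Mafk, Bach1 and Bach2 kept their direction in all of them. Mafg turned to 0.063 with the erythroid covariate. Maff turned to -0.108 with array weights, to -0.0081 with the pan-B covariate and to -0.035 without KO tumour 4 and WT tumour 3. Nfe2l2 turned to 0.0046 after median centring and to 0.219 with the erythroid covariate. With 1 tumour left out Mafk ran from -0.30 to -0.24, Mafg from -0.20 to -0.067, Maff from -0.057 to 0.061, Bach1 from -0.13 to -0.033, Bach2 from 0.28 to 0.45 and Nfe2l2 from -0.17 to 0.094. Bach2 was not tested with the filter on dim genes, which removed it, and no member had another probe set to try. The gene called lower in KO tumours (1 in the chosen setting) numbered 2 after quantile normalization and 0 over all probe sets, with the replicate block, with the pan-B covariate and without KO tumour 4 and WT tumour 3, and 0 to 1 with 1 tumour left out. At an unadjusted p below 0.05 in limma, 564 genes were higher and 772 lower. Over all 35556 probe sets, a larger number of tests than the 19938 genes, 1114 probe sets were higher and 1057 lower. The genes higher numbered 1117 with array weights, 1382 with the erythroid and 293 with the pan-B covariate, and 375 to 935 with 1 tumour left out. The filter on dim genes kept only genes brighter than the median gene and so tested fewer, of which 460 were higher and 344 lower. The genes lower numbered 1398 with array weights and 618 to 937 with 1 tumour left out. Median centring gave 650 higher and 654 lower, and quantile normalization 680 and 664. With the replicate block Mafk had a difference of -0.27 and Bach2 of 0.36, both not past the threshold. The deviations of same-numbered tumours had correlations of -0.234 to 0.485, and 1 of 9 KO tumours correlated best with its own number. The count of positive relations past the threshold (1) was 0 after centring each genotype, 0 after median centring, where the Bach2 and pan-B relation had r of 0.71 with an adjusted permutation p of 0.0518, and 0 to 3 with 1 tumour left out. The cause of these changes was not tested. The unadjusted limma p of Mafk was below 0.05 in 26 of 27 alternatives, the exception being the erythroid covariate. Its limma adjusted p was 0.266 or more in all of them. Nothing is read from this count, because the Mafk difference was known when the genes were picked and the alternatives share the same tumours. Dim signals limit Mafk, Maff and Bach2, whose levels are near the array medians.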
